A study of Mus musculus with 11 samples.

Results

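The genes described here are Nanog, Zfp42 (the gene of the protein REX1) and Tbx3, 3 transcripts used as readouts of naive pluripotency in mouse embryonic stem (ES) cells. They were chosen by their measured levels and gel-to-plastic differences in these same bulk and single-cell tables, so those differences are given as a description, with no test of their own. All 3 were found among the 12588 genes of the bulk table and among the 21926 to 23139 genes of each of the 5 single-cell tables. The study compared ES cells enclosed in agarose microgels, a soft three-dimensional surrounding, with cells on tissue-culture plastic, and asked what plakoglobin (Jup) does to naive pluripotency. The bulk libraries, 3 from gels and 3 from plastic, were made with Smart-seq2 from about 1000 pooled cells each and were all kept in 2i/LIF. This medium holds a MEK inhibitor, a GSK3 inhibitor and the cytokine LIF. Their line was Rex1GFPd2, named for a short-lived green fluorescent protein read from the Zfp42 locus; whether reads of that reporter allele count toward Zfp42 was not determined. The single-cell libraries were made by inDrop, in which cells are barcoded in droplets and each transcript carries a unique molecular identifier (UMI), with 1 library for each condition. Of these, 3 were of unmodified E14 cells: on plastic in serum/LIF, in gels in serum/LIF and on plastic in 2i/LIF. The other 2 were of cells said to carry plakoglobin driven by the CAG promoter at a high and at a low level (JupHigh and JupLow), on plastic in serum/LIF. The parent line of the latter, the number of clones and the days in culture are not given in the sources used here.

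Naive ES cells resemble the epiblast of the early blastocyst, and a small circuit of transcription factors keeps them there. Nanog encodes a homeobox factor that lets cells self-renew with less LIF and holds back primitive endoderm genes. Its level is known to vary between neighbouring cells in serum and to be more even in 2i. Tbx3 encodes a T-box factor that links inputs from PI3K and MAPK signalling to Nanog and is also expressed when ES cells turn towards extraembryonic endoderm. Zfp42 encodes a zinc finger protein related to YY1, is switched off early when cells leave the naive state, and is read as a marker of that state more than as one of its drivers.

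In GRCm38 with the GENCODE M21 annotation, Nanog is a protein-coding gene on chromosome 6, 122707489 to 122714633, plus strand. Zfp42 lies on chromosome 8, 43295063 to 43306980, minus strand. Tbx3 lies on chromosome 5, 119670669 to 119684724, plus strand, and its first 697 bases overlap the antisense transcript Tbx3os1. The 250 bases upstream of the RefSeq start of Nanog (chr6:122707239-122707488, plus strand) and of Zfp42 (chr8:43307010-43307259, minus strand), both in GRCm38.p6, are shown. The promoter set used held no entry for Tbx3, so its window is not shown. Capitals mark the octamer letters TTTGCAT bound by POU factors such as the one encoded by Pou5f1 and, in Nanog, the adjoining letters bound by SOX factors. Both sequences read 5′ to 3′ along the gene.
Nanog: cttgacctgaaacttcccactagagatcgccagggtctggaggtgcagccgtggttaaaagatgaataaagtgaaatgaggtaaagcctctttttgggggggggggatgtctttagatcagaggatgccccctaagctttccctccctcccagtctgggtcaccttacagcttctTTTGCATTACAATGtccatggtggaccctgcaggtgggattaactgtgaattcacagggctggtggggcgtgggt
Zfp42: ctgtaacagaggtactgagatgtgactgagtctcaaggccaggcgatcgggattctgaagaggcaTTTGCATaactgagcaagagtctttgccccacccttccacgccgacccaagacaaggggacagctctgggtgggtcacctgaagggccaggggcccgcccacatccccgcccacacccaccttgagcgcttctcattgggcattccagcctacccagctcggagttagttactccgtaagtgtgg
Both strands of every RefSeq promoter window of this length were searched. The octamer stood 75 to 69 bases upstream of the Nanog start and 185 to 179 bases upstream of the Zfp42 start, and it occurred in 1355 of 32851 promoters (4.12%). The longer element, TTTGCAT followed by any 1 base and ACAATG, was found in 2 of 32851 promoter entries (0.00609%), and both were entries of Nanog. Neither promoter held CAAGGTCA, the element of Esrrb (1.33% of promoters), TTCNNNGAA, that of STAT factors (7.02%), or CTTTGAT, that of TCF factors (3.21%). GC content was 52.0% for the Nanog window and 58.4% for the Zfp42 window. A match of letters describes the sequence and does not show binding.

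The bulk libraries held 707718 to 866721 recovered reads in gel and 637235 to 2583256 in plastic. After barcodes under 1000 UMIs were set aside, the single-cell libraries held 725 cells for the wild-type serum/LIF plastic library, 112 in gel, 2889 in 2i/LIF, 1200 for JupLow and 2153 for JupHigh. Median depth was 1731.5 to 2465 UMIs per cell, and no 2 libraries shared a cell barcode over its 24 bases. Without the middle 8 bases, 0 to 53 barcodes were shared per pair of libraries, the most between 2i/LIF and JupHigh. Jup itself stood at 36.7, 38.1, 46.7, 37.9 and 47.8 CPM (the UMIs of a gene over those of the library, scaled alike everywhere to the customary total) in the same order, which does not separate the lines from wild type in the way their names say. They are therefore called the libraries labelled JupHigh and JupLow. Further, 2 libraries stood apart. The gel table ends within a row and covers only the early part of the barcode range that holds 16.8% to 17.5% of the barcodes elsewhere. In the table of the wild-type serum/LIF plastic library, 105 of 2540 genes that reached 50 CPM in each other library stood here at less than 0.1 times their lowest level in those, 76 of them at 0, against 0 such genes in each of the others. The 3 genes described here were not among those 105, but that table is the control of most single-cell comparisons, and why these genes are low there was not tested. ES cell markers (Pou5f1, Sox2, Utf1, Dppa4, Dppa5a and Tdgf1) summed to 1871 to 2600 CPM, with Sox2 one of the 105 genes. Single markers moved apart within this sum. Against the wild-type serum/LIF plastic library, of 5 measured, 3 were higher and 0 lower in gel, and 2 and 3 in 2i/LIF. In JupLow 1 was higher and 4 lower, and in JupHigh 1 and 3. The shares over all genes stand with each comparison below.

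Nanog was lower in gel than on plastic in 2i/LIF. Its deposited values, normalised read counts, were 836, 858 and 796 in the gel libraries and 992, 1022 and 1139 in the plastic ones, on 579 to 2611 reads. Every gel library lay below every plastic library. In bulk, fewer cells with the transcript and less of it per cell cannot be told apart. Gel averaged 830.0 ± 31.8 and plastic 1051 ± 77.3 (SD, n = 3), and the log2 fold change was -0.34 (SE 0.09). Zfp42, the reporter locus of this line, followed Nanog closely. It stood at 555, 575 and 636 in gel and 700.3, 735 and 774 on plastic, on 463 to 1879 reads. Again the groups did not overlap, with gel below. Gel averaged 589 ± 42.3 and plastic 737 ± 37.0 (SD, n = 3), and the log2 fold change was -0.32 (SE 0.10). Within single libraries the ratio of Nanog to Zfp42, without correction for length, was 1.51, 1.49 and 1.25 in gel and 1.42, 1.39 and 1.47 on plastic, so these ranges overlapped.

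Tbx3 went the other way and from a far lower level. It stood at 45.1, 39.3 and 42.6 in gel, on 40, 32 and 31 reads, and at 21.6, 7.43 and 22.8 on plastic, on 52, 19 and 15 reads. The groups did not overlap, gel being above, and plastic replicate 2 was low beside the other plastic libraries. With means of 42.3 ± 2.93 and 17.3 ± 8.54 (SD, n = 3), gel was 2.45-fold above plastic as a ratio of means. The log2 fold change of the fit, a difference of mean log2 values, is another measure and was 1.42 (SE 0.32). Without plastic replicate 2 the log2 fold change was 0.92, still higher in gel. Without correction for length, Tbx3 amounted to 4.58% to 5.40% of the Nanog value in the gel libraries and to 0.728% to 2.18% in the plastic ones. Strand use in the counting is not given, so reads of Tbx3os1 cannot be told apart from those of Tbx3 in the shared 697 bases.

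**Figure D1:**
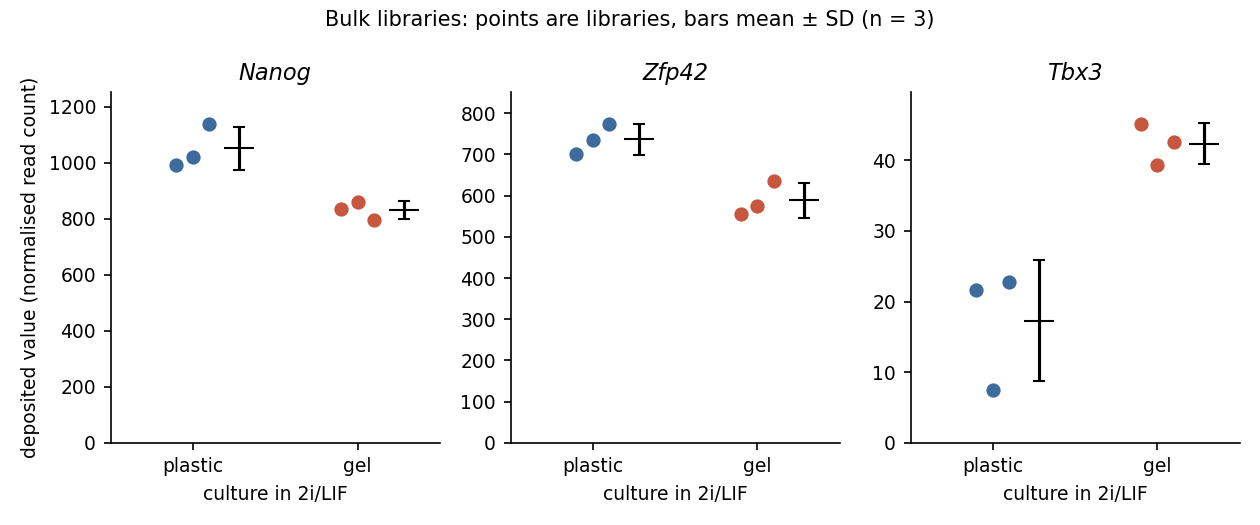
Deposited values (normalised read counts, vertical axis) of Nanog, Zfp42 and Tbx3 in each bulk library in 2i/LIF, with plastic in blue and gel in red; bars give the mean ± SD of 3 libraries. For Nanog and Zfp42 every red point lies below every blue point, and for Tbx3 every red point lies above, with plastic replicate 2 at 7.43.

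By limma with Benjamini-Hochberg adjustment, all 3 genes were called at an adjusted p threshold of 0.05, Nanog and Zfp42 lower and Tbx3 higher. Zfp42 lost its call without gel replicate 1. Calls were also made for 36.9% of the 7878 tested genes (18.3% higher and 18.6% lower), and 49.5% did not overlap between the groups (25.0% with gel below, 24.4% with gel above). Because these genes were chosen with this contrast known, nothing is read from their calls, kept or lost, here or below. Of all tested genes, 28.3% had a lower fold change than Nanog, 29.2% than Zfp42 and 97.9% than Tbx3. The fold change of a gene also moved with its transcript: across 7688 genes, which are not independent replicates, it correlated with the GC content of the longest transcript (Spearman's rho 0.30) and varied with length. The Nanog transcript (45.8% GC, 2211 bases) and the Zfp42 transcript (46.4%, 1837 bases) fell into the same class of 153 genes of like GC and length. The median log2 fold change of that class was -0.29, close to the values of both genes, and 43.1% of the class lay below Nanog and 45.1% below Zfp42. After each class was centred on its median, Nanog came to -0.08 and Zfp42 to -0.07, and neither was called. Centring on length alone also left neither called, and centring on GC content alone left Nanog called. Tbx3 (54.2%, 4982 bases) belonged to a class of 154 genes with a median of 0.44, of which 92.2% lay below Tbx3. After GC and length centring Tbx3 kept a log2 fold change of 1.03 and its call. That centring called 2322 of 7688 genes, 1196 higher and 1126 lower. What part GC content and length play in the lower values of Nanog and Zfp42 was not tested further.

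**Figure D2:**
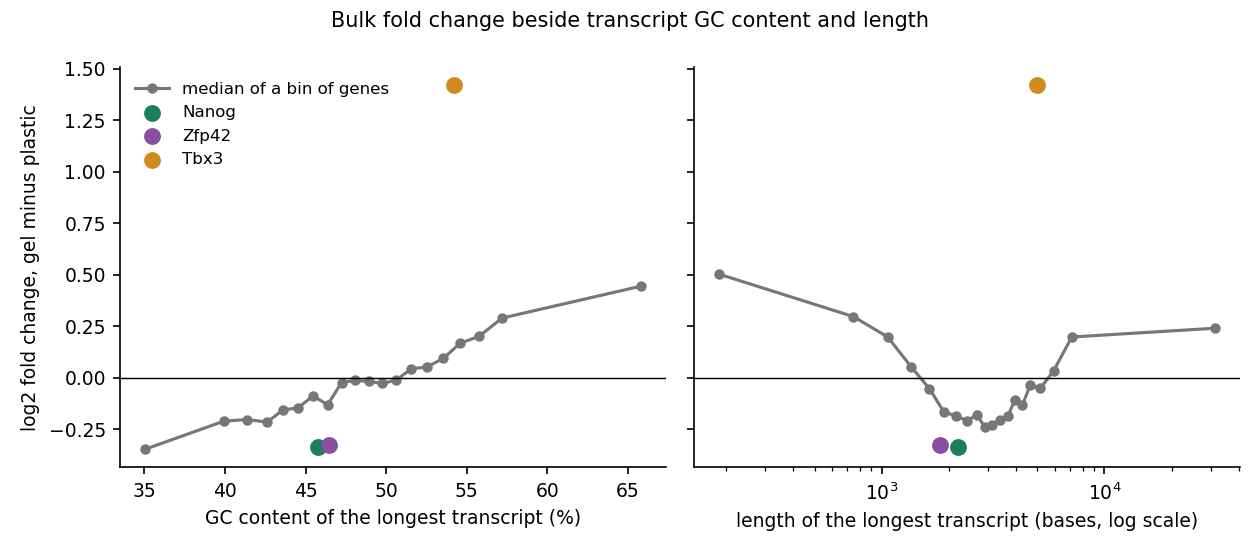
Log2 fold change, gel minus plastic (vertical axis), against GC content (left, percent) and length (right, bases, log scale) of the longest transcript. Grey points are medians of bins of about equal gene number, and coloured points are the 3 genes: Nanog (-0.34) and Zfp42 (-0.32) lie below the grey line by less than Tbx3 (1.42) lies above it.

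More of the other genes of the naive circuit were higher than lower in bulk gel. Of 17 partners, all tested, 9 were higher in gel and 2 lower, with a median log2 fold change of 0.54 against -0.02 for all tested genes. The GC and length centring left these counts at 9 and 2. The list was written with earlier results of these data known and is not independent evidence of its direction. Klf2, a Kruppel-like factor stabilised when MEK is inhibited, rose from 26.1 ± 3.02 to 115 ± 31.5 (SD, n = 3; log2 fold change 2.08). Klf4, its relative downstream of LIF, rose by 1.84 on the log2 scale. Sp5, a target of beta-catenin, rose by 1.73, and Esrrb, an orphan nuclear receptor released when GSK3 is inhibited, by 1.55. The partners that fell were Pecam1, an adhesion molecule of the inner cell mass, at -1.01 and Dppa3, a maternal factor that guards DNA methylation, at -0.68. Among the core factors Pou5f1 (1.31) and Sox2 (1.51) rose and Sall4 fell (-0.80).

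The lists of inputs to Nanog are small, and their counts stand beside 18.3% higher and 18.6% lower over all tested genes. Of the 5 genes of the LIF arm, 2 were higher and 0 lower: Socs3, the feedback inhibitor of the pathway (2.32), and Stat3, its transcription factor (0.88). Socs3 rested on only 39 reads over the gel libraries and 17 over the plastic ones. Stat3 lost its call on GC and length centring. In the arm of GSK3 and TCF factors, 4 of 7 genes were tested, and 2 were higher and 1 lower. Tcf7l1, a repressor of Nanog, rose by 1.60 and Gsk3b, a kinase of the beta-catenin destruction complex, fell by 1.33 on the log2 scale. The ERK arm had 5 of 10 genes tested, 2 higher and 2 lower, and 1 higher and 0 lower after centring; the gene that kept its call was Etv5 (0.49), an ETS factor downstream of ERK. None of the 3 tested genes of the PI3K arm was called. Of 15 tested protein partners of NANOG, 6 were higher and 2 lower, with a median of 0.31. Nacc1 (3.02) and Zfp281 (1.23), which encode NANOG-binding transcriptional regulators, were higher, as were Chd4 (1.11), a chromatin remodeller, and Rbbp4 (1.09), a histone-binding protein. Nacc1 rested on only 40 reads over the gel libraries and 10 over the plastic ones, and came to 2.27 on GC and length centring. Hdac2 (-0.70), a deacetylase, and Rbbp7 (-0.43), a relative of Rbbp4, were lower; Rbbp7 came to -0.10 and lost its call on GC and length centring. Of the relatives and regulators of Zfp42, Yy1 (0.99) and the co-repressor Ctbp2 (0.83) were higher among 3 tested. The 7 T-box relatives of Tbx3 and the 9 primitive endoderm markers named below were not among the 12588 genes of the bulk table, so they could not be compared there.

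In single cells Nanog was highest in 2i/LIF. It stood at 82.8 CPM (95% exact Poisson interval 70.7 to 96.3) in the wild-type serum/LIF plastic library, 152 (107 to 211) in gel and 539 (524 to 555) in 2i/LIF. The library labelled JupLow had 92.4 CPM (81.6 to 104) and the one labelled JupHigh 450 (430 to 470). In ascending order these are wild type in serum/LIF, JupLow, gel, JupHigh and 2i/LIF. The first 2 did not differ beyond counting error (log2 ratio 0.16, interval -0.13 to 0.45). With every deposited barcode counted, that ratio was 0.39 (0.22 to 0.57), with TMM scaling it was 0.33 (0.05 to 0.62), and with every barcode JupHigh and 2i/LIF were no longer separated (-0.05, interval -0.12 to 0.02). Intervals throughout cover counting error within 1 library only, and there is no replicate check for any single-cell difference.

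Zfp42 had another order, with JupHigh above 2i/LIF. Its levels were 137 CPM (121 to 154) in the wild-type serum/LIF plastic library, 313 (246 to 393) in gel, 475 (461 to 490) in 2i/LIF, 239 (222 to 258) in JupLow and 739 (714 to 765) in JupHigh. Every neighbour in this order was separated by its counting interval, the closest being gel over JupLow at a log2 ratio of 0.39 (0.02 to 0.74). Without barcodes above 3 times the median depth, the ratio over the wild-type serum/LIF plastic library was 0.58 for gel and 0.71 for JupLow, so the order of these 2 turned. Tbx3 was lowest of the 3 genes in each library. It had 40 UMIs or 19.8 CPM (14.2 to 27.0) in the wild-type serum/LIF plastic library, 0 UMIs in gel, 105 CPM (98.0 to 112) in 2i/LIF, 12.5 (8.76 to 17.3) in JupLow and 51.5 (44.9 to 58.7) in JupHigh. Its level in JupLow was not separated from that in the wild-type serum/LIF plastic library (log2 ratio -0.66, -1.36 to 0.02). With every deposited barcode that ratio was -0.93 (-1.39 to -0.49). Without barcodes above 3 times the median depth it was -0.86 (-1.58 to -0.15). In the other alternatives with an interval, the interval included 0, with ratios up to 0.43. Tbx3os1 had 1 to 28 UMIs per library, so it stayed at 1.74 to 4.23 CPM where Tbx3 ranged up to 105. The pseudogene Nanog-ps1 had 0 or 1 UMI in each library.

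**Figure D3:**
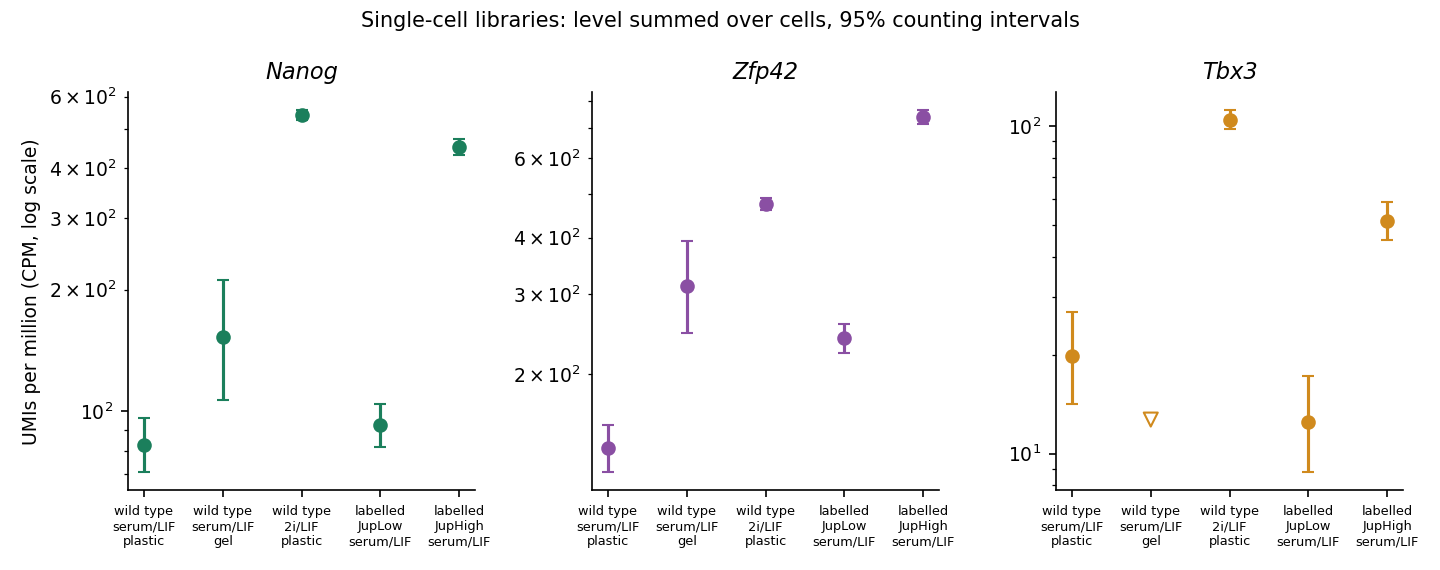
Level of each gene in the 5 single-cell libraries, as CPM summed over cells (log scale), with 95% counting intervals; all but the second library are from plastic. Nanog and Tbx3 are highest in 2i/LIF (539 and 105 CPM) and Zfp42 in JupHigh (739 CPM); the open triangle marks the 12.7 CPM that 3 UMIs would give in gel, where Tbx3 had 0.

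In serum/LIF, gel cells had more Nanog and Zfp42, where bulk gel in 2i/LIF had less of both, and held 0 Tbx3 UMIs. Nanog was 1.84-fold higher in gel (log2 ratio 0.88, 0.32 to 1.41) on 36 UMIs, and Zfp42 2.29-fold higher (1.20, 0.81 to 1.57) on 74. Among 7557 genes at 20 CPM or more in either library, 21.6% had an interval off 0, 9.83% higher and 11.8% lower. The Zfp42 value leaned on few cells: 2 gel cells above 3 times the median depth held 24 of the 74 UMIs, and without such cells the log2 ratio was 0.58 (0.11 to 1.02). The same 2 cells held 2 of the 36 Nanog UMIs. With these 105 nearly absent genes left out of every library total, the log2 ratios were 0.95 for Nanog and 1.26 for Zfp42. Set against a floor of 3 UMIs per library, the gel level of Tbx3 was at least 1.56-fold lower (-0.64 on the log2 scale, with a counting interval up to -0.28). With cells of at least 1500 UMIs this bound was -0.20 on the log2 scale and its interval reached 0.18, so a lower level was then not detectable at this depth. With every deposited barcode included, shallow ones too, the log2 ratio of Tbx3 was -1.40 (-3.06 to -0.14). In barcodes under 500 UMIs, which may hold free RNA, Nanog stood at 85.7 CPM on plastic and 208 in gel and Zfp42 at 152 and 219, so the same direction appeared there. The gel cells had 0 of 10 measured naive partners higher and 0 lower (median log2 ratio 0.03, all genes -0.05). Klf2, the partner that rose most in bulk, had a log2 ratio of 0.11 (-0.58 to 0.74). Medium, line and assay all differ between the bulk and single-cell comparisons and cannot be told apart.

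The 2i/LIF library had more of all 3 genes than the wild-type serum/LIF plastic library. The log2 ratios were 2.70 for Nanog (2.48 to 2.94), 1.80 for Zfp42 (1.62 to 1.98) and 2.40 for Tbx3 (1.95 to 2.90), where 65.1% of 7588 genes had an interval off 0, 30.5% higher and 34.6% lower. Of 15 measured partners, 13 were higher and 2 lower, with a median of 1.95 against -0.03 for all genes. Tfcp2l1, a LIF target, had the largest ratio among them (3.55), and Klf5, a Kruppel-like factor, was among the lower ones (-0.53). All 5 measured genes held back by or opposed to Nanog were lower, among them Pou3f1, a POU factor of primed cells (1.21 against 152.6 CPM), and Gata6, the primitive endoderm factor (0 against 63.9 CPM). Over the same control JupHigh also had 5 of 5 lower. JupLow, where Nanog was not separated, had 3 of 5 lower and 2 higher. Their list shares Gata4, Gata6 and Sox17 with the endoderm markers, which summed to 263 CPM in this control. Whether Nanog has a part in these differences was not tested.

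The library labelled JupHigh had more of all 3 genes than the same serum/LIF control. Its log2 ratios were 2.44 for Nanog (2.21 to 2.68), 2.43 for Zfp42 (2.26 to 2.62) and 1.38 for Tbx3 (0.89 to 1.90), where 59.4% of 7266 genes had an interval off 0, 19.2% higher and 40.2% lower. Partners were higher in 14 of 16 and lower in 1 (median 2.01, all genes -0.18). Against 2i/LIF, JupHigh had less Nanog (-0.26, -0.34 to -0.18) and less Tbx3 (-1.03, -1.25 to -0.81) but more Zfp42 (0.64, 0.57 to 0.71), where 22.6% of 6864 genes were higher and 41.3% lower (63.9% in all). The library labelled JupLow lay nearer the control: Zfp42 was higher (0.81, 0.60 to 1.01), where 41.5% of 7272 genes had an interval off 0 (19.2% higher and 22.3% lower), and 2 of 12 partners were higher and 2 lower. JupHigh was above JupLow for Nanog (2.28, 2.10 to 2.47), Zfp42 (1.63, 1.51 to 1.75) and Tbx3 (2.04, 1.53 to 2.59), and so were 15 of 15 partners, where 51.9% of 6953 genes had an interval off 0, 16.3% higher and 35.6% lower. In these comparisons the parent line may differ from E14 and cannot be told apart from the transgene. The comparisons with wild type in serum/LIF share that 1 library, so its counting enters each of them.

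Tbx3 UMIs of wild type in serum/LIF came largely from few cells that held primitive endoderm markers. In the wild-type serum/LIF plastic library, 51 of 725 cells held at least 3 UMIs of 9 primitive endoderm markers (Gata4, Gata6, Sox17, Sox7, Foxa2, Dab2, Amn, Cubn and Pdgfra). These 51 cells held 23 of the 40 Tbx3 UMIs. Of them, 31.4% (exact binomial 95% interval 19.1 to 45.9) had a Tbx3 UMI, against 2.23% of the other cells, at median depths of 2416 and 2358 UMIs. The level of Tbx3 was 163 CPM in them and 9.06 CPM elsewhere. Nanog and Zfp42 stood lower in these cells, Nanog at 14.2 CPM against 87.9 elsewhere and Zfp42 at 56.7 against 143. The shares with a UMI were 3.92% (0.478 to 13.5) and 14.2% for Nanog and 15.7% (7.02 to 28.6) and 24.8% for Zfp42, so for Zfp42 the interval includes the share of the other cells. The endoderm markers summed to 263 CPM in that library, 88.9 in gel, 4.10 in 2i/LIF, 35.8 in JupLow and 18.6 in JupHigh. Such cells numbered 3 in gel, 0 in 2i/LIF, 2 in JupLow and 6 in JupHigh, so the 869 Tbx3 UMIs of 2i/LIF were not in such cells. With these cells left out of every library, the log2 ratio of Tbx3 over the wild-type serum/LIF plastic library was 3.53 for 2i/LIF (2.85 to 4.32), 2.50 for JupHigh (1.79 to 3.31) and 0.43 for JupLow (-0.45 to 1.36). For gel no ratio could then be given, since the plastic level was under the floor of 12.7 CPM.

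To compare cells, each was thinned to 1000 UMIs. A Nanog UMI was then found in 7.86% of cells of the wild-type serum/LIF plastic library (6.01 to 10.1), 10.7% in gel (5.66 to 18.0), 38.0% in 2i/LIF (36.3 to 39.8), 8.25% in JupLow (6.76 to 9.95) and 33.0% in JupHigh (31.0 to 35.1). The shares without thinning were 13.5%, 21.4%, 64.1%, 15.6% and 51.4%. For Zfp42 the thinned shares were 13.2%, 19.6%, 34.1%, 16.3% and 47.7% in the same order, and 24.1%, 25.0%, 60.4%, 26.7% and 65.9% without thinning. For Tbx3 they were 1.38%, 0%, 8.90%, 0.917% and 5.02%, and 4.28%, 0%, 23.1%, 2.17% and 9.10%. In gel, 0 of 112 cells held a Tbx3 UMI, which allows a share of cells with a UMI of up to 2.68% by a floor of 3 cells and 3.24% by the exact binomial limit. At this depth the gel share of Nanog and of Zfp42 had an interval that overlapped the one on plastic. In the 45 gel and 428 plastic cells that could be thinned to 2000 UMIs, the Nanog share was 26.7% in gel (interval 14.6 to 41.9) and its interval on plastic ran from 7.37 to 13.3%, so the intervals did not overlap, while the shares of Zfp42 were 22.2% (11.2 to 37.1) and 20.1% (16.4 to 24.2). For comparison, the share of endoderm-marker cells with a Nanog UMI was 3.92% without thinning (0.478 to 13.5, 2 of 51 cells), and that of Zfp42 was 15.7% (7.02 to 28.6, 8 of 51 cells). On the same scale without thinning, the Nanog shares in the wild-type serum/LIF plastic library (13.5%), gel (21.4%) and JupLow (15.6%) lay at or above the upper limit of this interval. Those of Zfp42 (24.1%, 25.0% and 26.7%) lay inside its interval. By level, Zfp42 stood at 56.7 CPM in the endoderm-marker cells and at 137, 313 and 239 CPM in these libraries. The endoderm-marker cells are part of the wild-type serum/LIF plastic library and were not shown to lack either transcript. Their shares are therefore not a background level. Depth also differed, at a median of 2416 UMIs in them and 1731.5 in gel.

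Nanog was more unevenly spread over cells in the wild-type serum/LIF plastic library and in JupLow than in 2i/LIF and JupHigh. The excess variance, (variance - mean)/mean squared of the thinned counts, is near 0 where only counting noise separates cells. For Nanog it was 4.32 in the wild-type serum/LIF plastic library, 2.07 in gel, 0.366 in 2i/LIF, 3.60 in JupLow and 0.515 in JupHigh. Over the alternatives run it stayed within 3.05 to 6.87, 0.459 to 1.99, 0.177 to 0.678, 2.74 to 3.91 and 0.306 to 0.587, so the 2 plastic libraries with low Nanog lay above the 2 with high Nanog in each. The median over the 1527 to 1757 genes with a thinned mean of at least 0.1 was 0.258 to 0.392, and 98.7%, 93.3%, 70.0%, 99.2% and 79.4% of those genes lay below Nanog in the same order. Nanog lay at the edge of that range in the wild-type serum/LIF plastic library (0.102) and JupLow (0.101). In 2i/LIF (0.526) and JupHigh (0.444) it lay well inside, so these ranks compare unlike parts of the range. Zfp42 showed 1.17, 3.81, 0.245, 2.57 and 0.353, and 89.3%, 98.8%, 47.1%, 98.6% and 55.3% of the genes lay below it. Over the alternatives run, these values lay within 1.13 to 2.58, 2.99 to 6.68, 0.153 to 0.728, 2.33 to 3.74 and 0.300 to 0.514. The gel value of Zfp42 rested on 22 positive cells, and 1 cell held 12 of the 74 UMIs before thinning. Cells with 3 or more thinned Nanog UMIs made up 2.49% of 2i/LIF, where a Poisson count of the same mean gives 1.64%, and 0.414% of the wild-type serum/LIF plastic library, where it gives 0.0164%. The latter share is 3 of 725 cells. Tbx3 was too rare for this measure, with a thinned mean under 0.1 in each library.

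**Figure D4:**
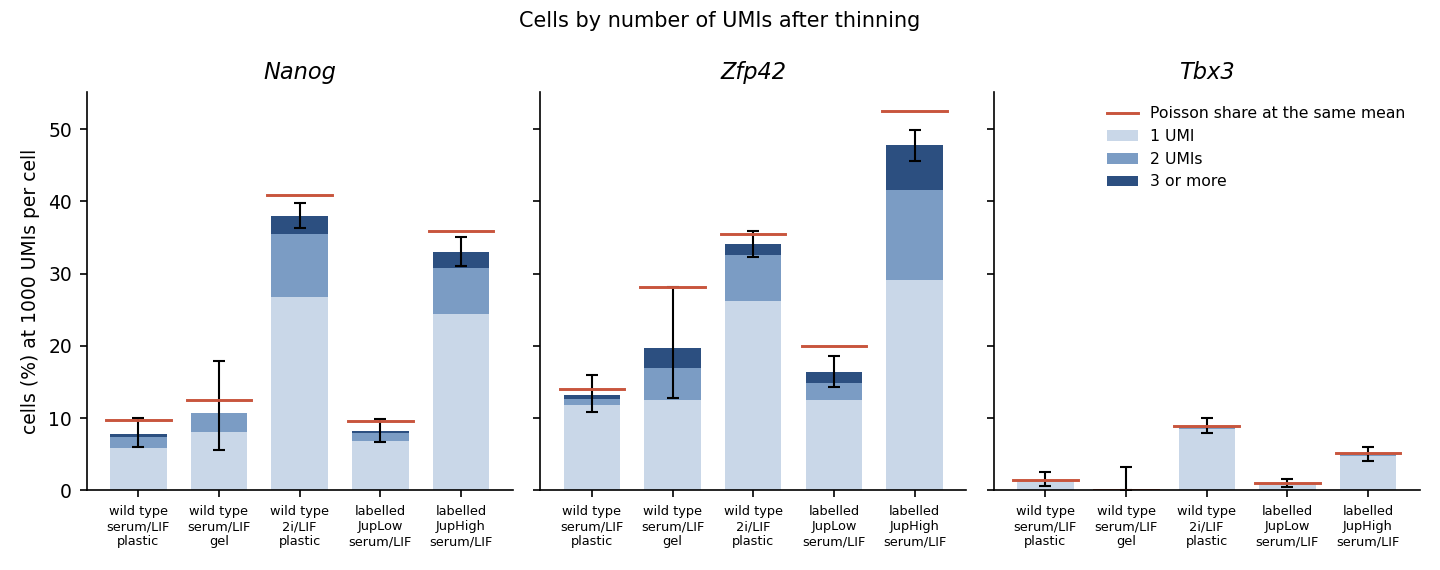
Share of cells (percent, vertical axis) holding 1, 2 or 3 and more UMIs of each gene after thinning to 1000 UMIs per cell, with 95% binomial intervals of the sum; red lines give the share a Poisson count of the same mean would give. The Nanog share is 38.0% in 2i/LIF and 7.86% in the wild-type serum/LIF plastic library, and the red line lies above the bar most widely for Zfp42 in gel.

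After thinning to 1000 UMIs, Nanog and Zfp42 were found in the same cells more often than the product of their shares in the 4 plastic libraries. In the wild-type serum/LIF plastic library, 18 of 725 cells held both after thinning, 2.48% (1.48 to 3.90) where the product of the single shares is 1.04%, a ratio of 2.38. In JupLow it was 35 of 1200 cells, 2.92% (2.04 to 4.03) against 1.35%, a ratio of 2.16. In 2i/LIF, where Nanog was found in 38.0% of cells, 460 of 2889 cells held both, 15.9% (14.6 to 17.3) against 13.0%, a ratio of 1.23. In JupHigh it was 390 of 2153 cells, 18.1% (16.5 to 19.8) against 15.8%, a ratio of 1.15. The ratio cannot exceed the inverse of the larger single share, so its ceiling differs by library. The ratios of 2i/LIF and JupHigh lay below theirs, and their size was not tested against that of the first 2 libraries. With thinning to 2000 UMIs the ratios were 1.05 in 2i/LIF and 1.06 in JupHigh, 1.85 in the wild-type serum/LIF plastic library and 2.12 in JupLow. In gel only 3 of 112 cells held both, too few to place the ratio of 1.27. Cells with a Nanog UMI had a Zfp42 UMI in 31.6% of cases in the wild-type serum/LIF plastic library and cells without one in 11.7%; in 2i/LIF the shares were 41.9% and 29.3%. For Tbx3 no such excess was separated from counting error in 2i/LIF or JupHigh with Nanog: both were found in 3.84% of 2i/LIF cells (3.17 to 4.61) against a product of 3.38%, and in 1.81% of JupHigh cells (1.29 to 2.47) against 1.66%. In JupLow, 5 of 1200 cells held both, 0.417% (0.135 to 0.970) against 0.0756%, so there the interval lay above the product. Only 11 cells of that library had a Tbx3 UMI. In the wild-type serum/LIF plastic library 2 cells held both, 0.276% (0.0334 to 0.993) against 0.108%. Zfp42 and Tbx3 were found together in 3.57% of 2i/LIF cells (2.92 to 4.31) against 3.03%, in 2.60% of JupHigh cells (1.97 to 3.36) against 2.40%, and in 1 cell of the wild-type serum/LIF plastic library. In JupLow 4 cells held Zfp42 and Tbx3, 0.333% (0.0909 to 0.851) against 0.150%. All 3 genes were found together in 49 cells in 2i/LIF, 22 in JupHigh, 3 in JupLow and 0 in the other 2 libraries. At 1000 UMIs per cell most transcripts of a cell are missed, so a cell without a UMI is not a cell without the transcript.

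**Figure D5:**
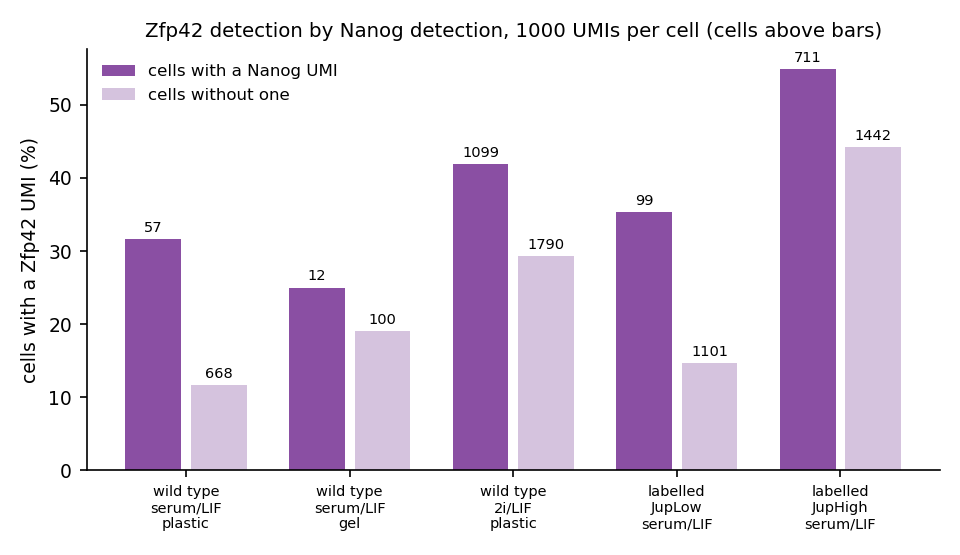
Share of cells with a Zfp42 UMI (percent) among cells with a Nanog UMI (dark) and without one (light) in each single-cell library at 1000 UMIs per cell, with the number of cells above each bar. The dark bar is higher in each library, 31.6% against 11.7% in the wild-type serum/LIF plastic library and 41.9% against 29.3% in 2i/LIF; the gel bar of Nanog-positive cells rests on 12 cells.

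In JupLow, cells with a Zfp42 UMI also carried more of the naive circuit. There 196 cells with Zfp42 were set against 1004 without, and 10 of 14 measured partners were higher and 0 lower beyond counting error, with a median log2 ratio of 1.84. Over all genes the median was 0.26 and 901 of 7483 were higher. Klf2 stood at 485 CPM against 119, Esrrb at 194 against 55.8, and Tfcp2l1 at 81.6 against 15.9. Pou3f1, the factor of primed cells, was lower, at 107 against 206 CPM. It was 1 of 2 measured genes opposed to Nanog. The other was neither higher nor lower beyond counting error, and the median log2 ratio was -0.14. For Nanog in the same library 4 of 14 partners were higher (median 1.08, all genes 0.24 with 5.74% higher). In JupHigh 9 of 15 were higher in cells with Zfp42 (median 0.49, all genes 0.35 with 29.0% higher) and 8 of 15 in cells with Nanog (0.27 and 0.22, 17.5%). In 2i/LIF it was 5 of 15 for Zfp42 (0.38 and 0.21, 19.6%) and 4 of 15 for Nanog (0.22 and 0.23, 21.9%), so the Nanog cells there did not stand out from all genes. In the wild-type serum/LIF plastic library 3 of 11 partners were higher in cells with Zfp42 (0.85 and 0.25, 4.76%) and 2 of 11 in cells with Nanog (1.23 and 0.23, 3.94%). In gel it was 1 of 12 for Zfp42 (1.45 and 1.03, 1.23%). There only 22 cells with Zfp42 were set against 90 without, and the lists of the LIF arm and the PI3K arm had the same median of 1.45. Ratios from so few cells take few distinct values, so the gel medians cannot show whether the partners were higher. The median of 1.23 for Nanog in the wild-type serum/LIF plastic library, from 57 cells with Nanog, has the same limit. Among cells with Tbx3, 1 of 15 partners was higher in 2i/LIF (0.17 and 0.18, 8.66%) and 3 of 15 in JupHigh (0.18 and 0.22, 5.98%). Cells of 1 library are not replicates, and no test was made.

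The genes whose levels over the 5 single-cell libraries were most like those of each gene were found by the Euclidean distance of centred log2(CPM + 1) profiles among 1112 genes. For Nanog they were Kit (distance 0.80), Npl, Gstp2, Gm13929 and Slc6a8 (0.99). Kit, a receptor tyrosine kinase, stood at 21.3, 21.2, 146, 14.9 and 86.1 CPM in the order used above. For Zfp42 they were Gm13929 (0.45), Pla2g1b, Hsd17b14, Gjc1 and Grsf1 (0.82). Gm13929 stood at 23.3, 50.8, 77.0, 27.4 and 118 CPM, with JupHigh above 2i/LIF as for Zfp42. For Tbx3 the nearest was Aff1 (0.88), which also had 0 UMIs in gel, and the next were Slc4a5 (2.46), Gm46332, Alpl and Mylpf (3.02). Gel levels under the floor of 12.7 CPM enter these distances, 0 for Tbx3 and Aff1 and 4.23 CPM for Slc4a5. Such levels cannot be told apart at this depth, so the gap between Aff1 and Slc4a5 is not resolved. Each profile has 5 points, 1 per library, and each point shares the depth and counting of its library.

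The balance between the 3 genes differed by assay. Per kilobase of exon, the bulk values on plastic were 469 for Nanog, 392 for Zfp42 and 2.61 for Tbx3, so Nanog stood 179.8-fold above Tbx3; in gel the factor was 57.9. In the 2i/LIF single cells, where a UMI is counted once per transcript whatever its length, Nanog stood 5.14-fold above Tbx3, and in the serum/LIF and Jup libraries on plastic 4.18-fold to 8.73-fold. The ratio of Nanog to Zfp42 was 1.20 per kilobase in bulk plastic and 1.13 in the 2i/LIF single cells, against 0.605 in the wild-type serum/LIF plastic library, 0.486 in gel, 0.386 in JupLow and 0.608 in JupHigh. The 2 assays were thus close for Nanog and Zfp42 in 2i/LIF and far apart for Tbx3. Line and assay differ between them and cannot be told apart.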

How the data were processed

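Members and gene lists were chosen with earlier results of these data known. The submitters' processing notes name FastQC, STAR, featureCounts, DESeq2 and Scanpy and the builds mm10 and GRCm38, with no version or order. The deposited bulk values are a signal: gene counts the authors divided by 1 factor per library, as judged from the values, all of which (100%) are whole multiples of a library's step within 0.01 reads, so whole reads were recovered. The deposited single-cell values are whole UMI counts, without normalization. Bulk columns marked for both gel and plastic were taken as plastic, and where the title and description of 1 plastic sample number it differently the title was followed.

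Bulk groups were compared with limma 3.58.1 (R 4.3.3, trend) on log2(value + 0.5), over 7878 genes passing edgeR's expression filter, with Benjamini-Hochberg adjustment at 0.05; fold changes are on that scale and understate those of low genes. edgeR 4.0.16 and DESeq2 1.42.0 ran on recovered reads as alternatives. Replicates differed by more than sampling noise (chi-square per degree of freedom 1.58 to 2.20); nothing says that they came from separate cultures, so p-values measure the spread between these samples. Tested on simulated data for the bulk comparison (200 of 7878 genes changed), 93% of 4-fold and 65% of 2-fold changes were recovered, 3.66% of calls were false, and 0 genes were called with nothing changed.

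Cells were barcodes of at least 1000 UMIs; barcodes that start and end in 8 G were left out, as were unnamed columns (0.00509% to 0.499% of UMIs), and no doublet caller was run. CPM is a gene's UMIs relative to all UMIs in the cells of its library. Ratios have exact conditional binomial intervals (95%); floors are 3 UMIs. In comparisons with the wild-type serum/LIF plastic library, the 105 genes nearly absent there stayed out of lists and backgrounds. By the naming rule, beyond the 3 genes any detected list gene may be named with its value, each list gives up to 4 called genes with the largest bulk fold change (Pecam1, Dppa3, Hdac2 and Rbbp7 were added after their values were seen, as the ones that were lower), and the text names the 5 nearest profiles per gene over genes at 100 CPM or more in a library whose span overlaps no other gene; Pou5f1, Sox2 and Sall4 are a whole list. Alternatives for GC content and length, the barcode limit, endoderm-marker cells and the 105 genes were chosen after seeing the data. Figures were drawn with matplotlib 3.10.9. The values of 1 partner gene are not reported here.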

Additional observations from a re-analysis of the deposited data

Results flagged for a closer look

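The values of Nanog, Zfp42 and Tbx3 for gel against plastic had opposite signs in the 2 media. In bulk, every gel library lay on one side of every plastic library. Nanog had a log2 fold change of -0.34 in 2i/LIF bulk and a log2 ratio of 0.88 in serum/LIF single cells. Zfp42 had -0.32 and 1.20. Tbx3 had 1.42 in bulk and a bound of -0.64 in single cells, where gel held 0 UMIs. On GC and length centring the bulk values of Nanog and Zfp42 were -0.083 and -0.069 and not called. The interval of the Tbx3 bound reached 0.18 with cells of at least 1500 UMIs, and 23 of the 40 plastic UMIs lay in 51 endoderm-marker cells, outside which Tbx3 stood at 9.06 CPM, under the gel floor of 12.7 CPM. The difference between media was not tested: serum/LIF had 1 library a group, and line and assay differ too.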

How the results depend on the processing

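The 3 bulk fold changes kept their direction under every alternative run. With each library left out in turn, values were -0.38 to -0.28 for Nanog, -0.38 to -0.28 for Zfp42, 0.92 to 1.69 for Tbx3 and 2361 to 2833 called genes. Without gel replicate 1 Zfp42 lost its call. Nanog moved to -0.17 on length centring and -0.083 on GC and length centring. Zfp42 moved to -0.21 on GC centring, -0.18 on length centring and -0.069 on both. Calls over all genes lay between 2188 (DESeq2) and 3158 (edgeR). Same-numbered gel and plastic libraries did not deviate together (r -0.05, 0.02 and 0.02), so no pairing by number was seen. With 3 libraries a group this cannot show that they were unpaired. The fit with the replicate block called 2988 genes. The gel ratio of Nanog in serum/LIF ranged from 0.55 to 1.23, and that of Zfp42 from 0.58, without barcodes above 3 times the median, to 1.28. The bound for Tbx3 was -0.20 with cells of at least 1500 UMIs, and with every deposited barcode the ratio was -1.40. No gel value for Tbx3 could be given from the mean of each cell's CPM, with endoderm-marker cells left out or with barcodes limited to the range of the gel table. Tbx3 is too rare for the excess variance to be read: in the wild-type serum/LIF plastic library 11.1 became 7.10 with another seed and -0.83 without endoderm-marker cells (the cause was not tested). Of 159 values of single-cell ratios under alternatives, 21 left their counting interval and 0 changed sign where the interval excluded 0. Depth limits the gel library most, where 3 UMIs are 12.7 CPM.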
